A study of Mus musculus with 6 samples.

Results

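The nuclear factor I (NFI) genes of the mouse, Nfia, Nfib, Nfic and Nfix, were described by the acetylation of histone H3 at lysine 27 (H3K27ac) around them, a mark of active promoters and enhancers. These 4 genes were chosen by name out of 21883 protein-coding genes. Each was given a gene domain, made of the gene body and 50 kb on either side, ended midway to the next coding gene. The parent study concerned MYRF, a transcription factor that is made as a membrane protein, in lung mesothelium, the sheet of cells on the outer surface of the organ. The assay was CUT&RUN, which uses an antibody-tethered nuclease to free DNA near a histone mark, and the cells were sorted from pooled E16.5 lungs. The mesothelial cells were PDPN+EPCAM-CD45-CD31-DAPI- and gave 2 libraries, titled 25k and 100k by cell number. The epithelial cells were PDPN+EPCAM+CD45-CD31-DAPI- and gave 2 libraries, titled 100k and 200k. All embryos came from matings of Myrf Fl/Fl mice, for which the labels name no Cre, and wildtype is the word used for the cells in the series text. The IgG libraries of epithelial cells, 2 in number, were not analysed here. Whether the deposited peaks were called against them is not given in the labels. Whether replicates were separate pools of lungs is not stated, and the p-values cover only the spread of these libraries, which may be technical.

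NFI proteins bind DNA as dimers at the palindrome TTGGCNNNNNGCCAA, and some half-sites TTGGC also serve, through an N-terminal domain that the family shares. They can activate or repress transcription, and in several mouse tissues they accompany the step from growth to maturation. In the lung the best known member is Nfib: mice without it die at birth with immature lungs. Nfia is best known for glial development, Nfix for fetal muscle and brain, and Nfic for the formation of tooth roots, all from mouse knockouts.

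The lists held 39006 and 41524 peaks in mesothelium and 47869 and 46632 in epithelium, which covered 35.7 and 39.8 Mb and 44.4 and 41.4 Mb. Depth is unknown, since such lists hold no read counts. Of 8 mesothelial markers, summed acetylated length was 26.8 and 57.1 kb in mesothelium against 2.33 and 6.55 kb in epithelium. Of the 7 tested, 5 were called longer in mesothelium, as 1.39% of all tested domains were. Msln went the other way without a call, with 0.544 and 0.893 kb in mesothelium against 1.185 and 4.285 kb in epithelium. Of 8 epithelial markers, the sum was 28.4 and 4.82 kb in mesothelium against 134 and 154 kb in epithelium, so the sum was larger in mesothelium replicate 1 than in replicate 2. Cdh1, Grhl2, Foxa2, Krt18 and Nkx2-1 were longer in replicate 1 than in replicate 2, and Epcam, Krt8 and Cldn18 were shorter. Mesenchymal markers, which the mesothelial gate could also admit, summed to 4.70 and 9.24 kb in mesothelium against 3.16 and 5.15 kb in epithelium, and none of the 5 tested was called. Endothelial markers summed to 10.8 and 4.75 kb against 4.49 and 4.90 kb, with Kdr called longer in mesothelium, Cdh5 at 0 there and Lyve1 at 0 in every library. Pecam1, the gene of the gated CD31, had 5.43 and 1.52 kb in mesothelium against 2.31 and 1.92 kb in epithelium, and Tie1 had 1.31 kb in mesothelium replicate 1 alone. Blood markers summed to 0.654 kb and 0 against 0 and 1.74 kb, with Ptprc, Spi1 and Lyz2 at 0 in mesothelium and Cd68 and Csf1r listed in mesothelium replicate 1 alone.

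Nfib and Nfia carried some of the longest acetylated domains of the genome in all 4 libraries, while Nfix and Nfic carried short ones. Nfib (chromosome 4, 82290173 to 82506751, mm10) had 88.1 and 71.5 kb under peaks in mesothelium, against 64.1 and 43.4 kb in epithelium. Both mesothelium libraries lay above both epithelium libraries, by 1.11 times between the nearest ones. Among all 21883 domains Nfib ranked first and second in the mesothelium libraries and sixth and 18th in the epithelium libraries. The Nfib domain spans 317 kb, and the peaks filled 27.8% and 22.6% of it in mesothelium and 20.3% and 13.7% in epithelium, so the locus is long as well as densely marked. By filled share Nfib ranked 133 and 381 in the mesothelium libraries and 340 and 732 in the epithelium libraries, lower in each than by length.

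Nfia (chromosome 4, 97578066 to 98118876) had 72.8 and 45.7 kb in mesothelium, against 34.4 and 28.2 kb in epithelium. Again the cell types did not overlap, with 1.33 times between the nearest libraries. It ranked second and 15th by length in mesothelium and 50th and 81st in epithelium. Its domain of 641 kb is the largest of the 4, and the filled share was 11.4% and 7.13% in mesothelium against 5.36% and 4.40% in epithelium, or ranks 956, 2819, 3343 and 3904. Nfix (chromosome 8, 84704712 to 84801238) had 7.38 and 2.74 kb in mesothelium, against 4.35 and 6.48 kb in epithelium. The libraries of the cell types overlapped, and mesothelium held both the highest and the lowest value. Nfic (chromosome 10, 81396191 to 81431919) had 0.621 and 1.68 kb in mesothelium, against 0.749 and 1.28 kb in epithelium, and again the cell types overlapped. Mean filled shares of 4.88% and 5.22% for Nfix and 2.31% and 2.03% for Nfic, in mesothelium and epithelium, set both below Nfib (25.2% and 17.0%), and Nfix in mesothelium also below Nfia (9.25% and 4.88%). The order by length was Nfib, Nfia, Nfix and Nfic in each of the 4 libraries, while the shares of Nfia and Nfix overlapped in epithelium.

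**Figure D1:**
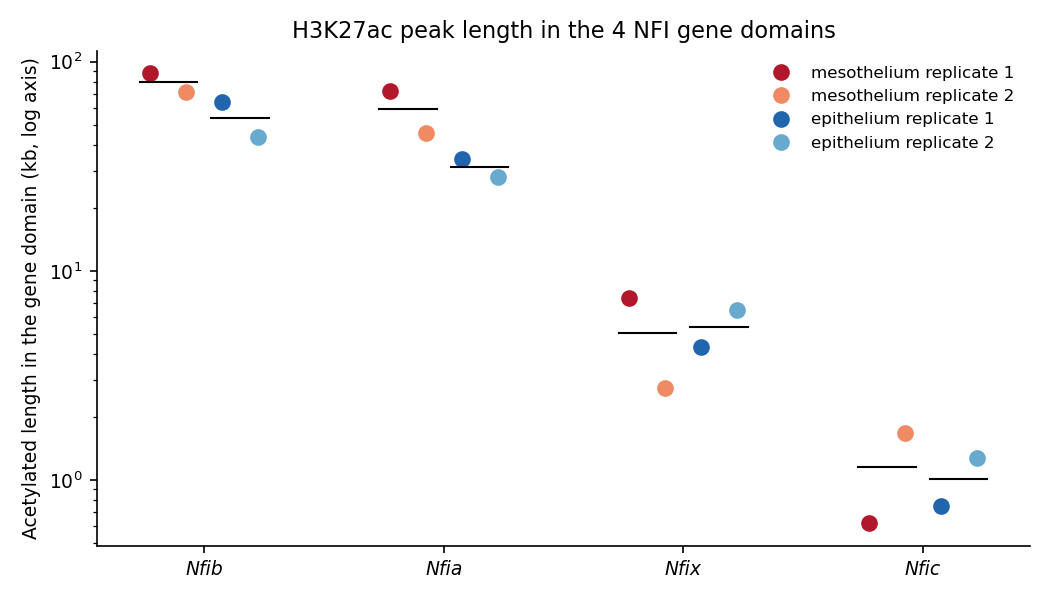
Acetylated length in each NFI gene domain (kb, log axis), one point per library, with a black line at the mean of each cell type. Nfib and Nfia lie between 28.2 and 88.1 kb with the mesothelium points above the epithelium points, while the points of Nfix and Nfic overlap.

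Nfia was the 1 member of the family whose acetylated length differed between the cell types past the threshold. Lengths were compared by limma on log2(kb + 0.5), centred on the median over domains with a peak in every library, a scale that understates differences of short domains. The mean of Nfia was 59.2 ± 19.2 kb in mesothelium, against 31.3 ± 4.36 kb in epithelium (SD, n = 2 each), a log2 difference of 0.94 (SE 0.26, limma adjusted p = 0.0427). Nfib averaged 79.8 ± 11.7 kb in mesothelium against 53.8 ± 14.6 kb in epithelium (SD, n = 2 each), a log2 difference of 0.64 (SE 0.21, limma adjusted p = 0.0959), which did not pass. Nfic (log2 difference 0.13, 95% interval -1.46 to 1.72, limma adjusted p = 0.958) and Nfix (-0.14, 95% interval -1.34 to 1.05, limma adjusted p = 0.934) did not pass either, and their intervals hold differences of over 2-fold both ways. The background was 3.91% of 10485 tested domains called, 1.39% as longer in mesothelium and 2.52% as longer in epithelium, and 17.7% with an unadjusted p under 0.05. Values of the cell types were apart at 2 of the 4 genes, as at 48.1% of tested domains. Both mesothelium libraries lay above both epithelium libraries at 24.6%, so that pattern at Nfia and Nfib is a common one. The median log2 difference was 0.39 over the 4 genes and 0.03 over all tested domains. For a single gene, 2 libraries against 2 allow no exact permutation p below 0.333.

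The Nfia call lay close to the threshold and was kept in 4 of 17 other settings, with limma adjusted p between 3.6e-08 and 0.484. Without mesothelium replicate 1, the library with the larger epithelial marker sum, the log2 difference was 0.56 (limma adjusted p = 0.183), and the call was also lost without epithelium replicate 1 (1.00) or replicate 2 (0.80). Nfib passed without mesothelium replicate 2 (log2 difference 0.89, limma adjusted p = 8.6e-06) and stood at 0.44 without mesothelium replicate 1 and 0.37 without epithelium replicate 2. With 0.1 kb added in place of 0.5, with a −log10 q of at least 2, or with no intensity trend, limma called 1, 0 and 0 domains (1654, 963 and 1746 at an unadjusted p under 0.05), and no call given below for a neighbour or a listed gene was kept. Cell number differed too, with 25k and 100k in mesothelium against 100k and 200k in epithelium. Between the 100k libraries, Nfib had 71.5 kb in mesothelium against 64.1 kb in epithelium, and Nfia 45.7 against 34.4 kb. Whether cell number or other cells in the sort moved these lengths was not tested. In bulk sorted cells more cells with the mark and more mark per cell cannot be told apart.

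**Figure D2:**
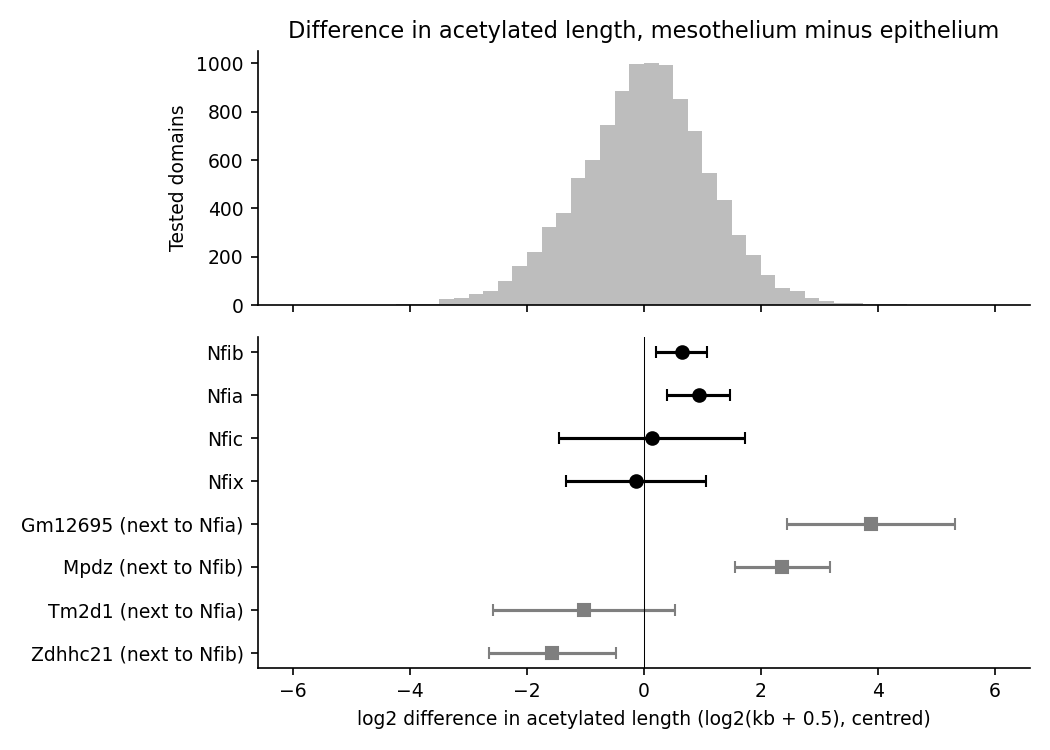
Top, number of tested domains by log2 difference in acetylated length (mesothelium minus epithelium). Bottom, the 4 NFI genes (circles) and their tested neighbours (squares), with 95% intervals from limma: Nfia lies at 0.94 and Nfib at 0.64, within the bulk of all domains, and Mpdz and Gm12695 lie at 2.37 and 3.89.

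Regions of the Nfib domain were found in all libraries, or in mesothelium only, at higher shares than over the genome. Overlapping peaks of the 4 lists were merged into regions, and a region counted as mesothelium-only when both mesothelium libraries and neither epithelium library had a peak in it. The Nfib domain held 75 regions: 11 in all 4 libraries, 10 mesothelium-only, 2 epithelium-only, 4 in 3 libraries, 9 in 1 library of each cell type and 39 in 1 library. These are 14.7%, 13.3% and 2.67% for the first 3 classes, against 3.24%, 2.6% and 3.31% of all 132212 merged regions. Regions found in 1 library of each cell type show how often unlike libraries coincide, and their 4 patterns held between 0 and 5 Nfib regions each. This class was 12.0% of Nfib regions against 5.34% of all regions, and regions in 1 library were 52.0% against 80.8%. Higher shares at Nfib were thus not limited to all-library and mesothelium-only regions. No other coding gene domain held 10 mesothelium-only regions, and 4 held more, up to 12. In all 4 libraries at once, 1 domain held more regions than Nfib. With either mesothelium library left out the rule asks less of mesothelium, and Nfib then had 25 and 23 mesothelium-only regions, while the class made up 26.2% and 24.6% of all regions. With a −log10 q of at least 2 it had 7 mesothelium-only, 2 all-library and 0 epithelium-only regions, and with at least 4 none of the 3 classes. At the floor of 2 these classes were 4.18%, 1.40% and 1.95% of all regions.

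The Nfia domain held 83 regions, of which 6 were in all 4 libraries, 14 in 3, 2 were mesothelium-only and 4 epithelium-only. Another 12 were in 1 library of each cell type (14.5%, against 5.34% of all regions). The remaining 45 were in 1 library (54.2%, against 80.8%). The shares were 7.23% for all libraries, 16.9% for 3 libraries, 2.41% for mesothelium-only and 4.82% for epithelium-only, against 3.24%, 4.75%, 2.6% and 3.31% of all regions. The shares of cell-type-only regions at Nfia were thus near the background. By number, 68 coding gene domains held more epithelium-only regions than Nfia and 196 held more mesothelium-only ones. More all-library regions were held by 18 domains. These counts take no account of domain length. With a −log10 q of at least 2 Nfia had 7 mesothelium-only and 0 epithelium-only regions, and over all regions the balance moved the same way, to 4.18% against 1.95%. Nfix had 14 regions, 11 of them in 1 library, 2 in 3 libraries and 1 in 1 library of each cell type. Nfic had 8 regions, each in 1 library under the rule of 1 shared base. A mesothelium replicate 2 peak that ended at 81414397 and an epithelium replicate 1 peak that began at 81414440 lay side by side.

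Covered length was also summed by class of region. The 15 Nfib regions in 3 or 4 libraries covered 54.7 and 44.4 kb in mesothelium, against 51.2 and 32.2 kb in epithelium, which overlap. The 39 Nfib regions in 1 library covered 13.7 and 9.38 kb in mesothelium, against 4.72 and 6.11 kb in epithelium, which do not overlap. Mesothelium-only regions of Nfib covered 11.6 and 15.6 kb in mesothelium and, by their definition, nothing in epithelium. The 20 Nfia regions in 3 or 4 libraries covered 49.8 and 28.9 kb in mesothelium, against 18.9 and 13.0 kb in epithelium, which do not overlap. The 45 Nfia regions in 1 library covered 11.4 and 10.9 kb in mesothelium, against 7.95 and 7.10 kb in epithelium, again without overlap. Mesothelium-only regions of Nfia covered 2.19 and 3.59 kb in mesothelium, and epithelium-only regions 2.62 and 5.36 kb in epithelium. The presence of peaks in a library decides the class of a region, so these sums describe the classes, carry no test and are no comparison of the genes.

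**Figure D3:**
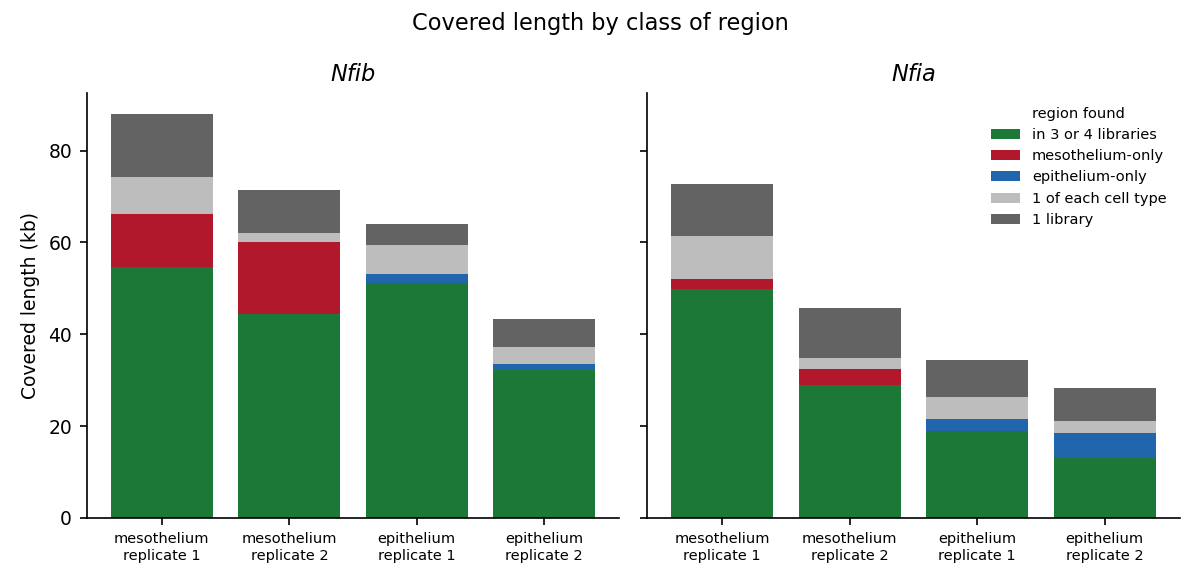
Covered length (kb) in each library at Nfib and Nfia, stacked by the class of the merged region. At Nfib the mesothelium-only part holds 11.6 and 15.6 kb, and at Nfia the regions in 3 or 4 libraries hold 49.8 and 28.9 kb in mesothelium, against 18.9 and 13.0 kb in epithelium.

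Acetylation of Nfib was dense in the higher-coordinate part of the gene. The 50 kb between 150 and 200 kb from the lower end of the gene held 21.9 and 17.6 kb of peaks in mesothelium, against 24.6 and 17.5 kb in epithelium. In this stretch the cell types overlapped. The 50 kb before it, from 100 to 150 kb, held 17.8 and 17.9 kb in mesothelium against 8.68 and 6.19 kb in epithelium, so both mesothelium libraries were higher. The widest all-library region spanned 12.5 kb (chr4:82436909-82449422) and ranked 40th in width of all merged regions. A second spanned 11.4 kb (chr4:82461727-82473127). Around the higher end of the gene, regions of 9.56 kb (chr4:82496594-82506149) and 7.75 kb (chr4:82506224-82513972) were again found in all 4 libraries.

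The mesothelium-only regions of Nfib were spread along the locus, with 5 in the gene body, 2 in the lower flank and 3 in the higher flank. The widest had its centre 33.5 kb beyond the higher end of the gene (chr4:82538201-82542243, 4.04 kb), with 1.58 and 3.23 kb under peaks in mesothelium and no peak in epithelium. Another in the same flank (chr4:82555267-82556546) reached a −log10 q of 2.74 and 4.12 in the mesothelium libraries, the highest of the 10 in each. The next widest was centred within the gene, 22.4 kb from its lower end (chr4:82310744-82314493, 3.75 kb), with 1.22 and 2.96 kb in mesothelium. Over the whole higher flank of 50 kb, peaks filled 17.2% and 24.9% in mesothelium against 9.97% and 5.06% in epithelium. The wider of the 2 epithelium-only regions (chr4:82290079-82291563) overlapped the lower end of the gene, with 1.48 and 0.847 kb under peaks in epithelium.

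**Figure D4:**
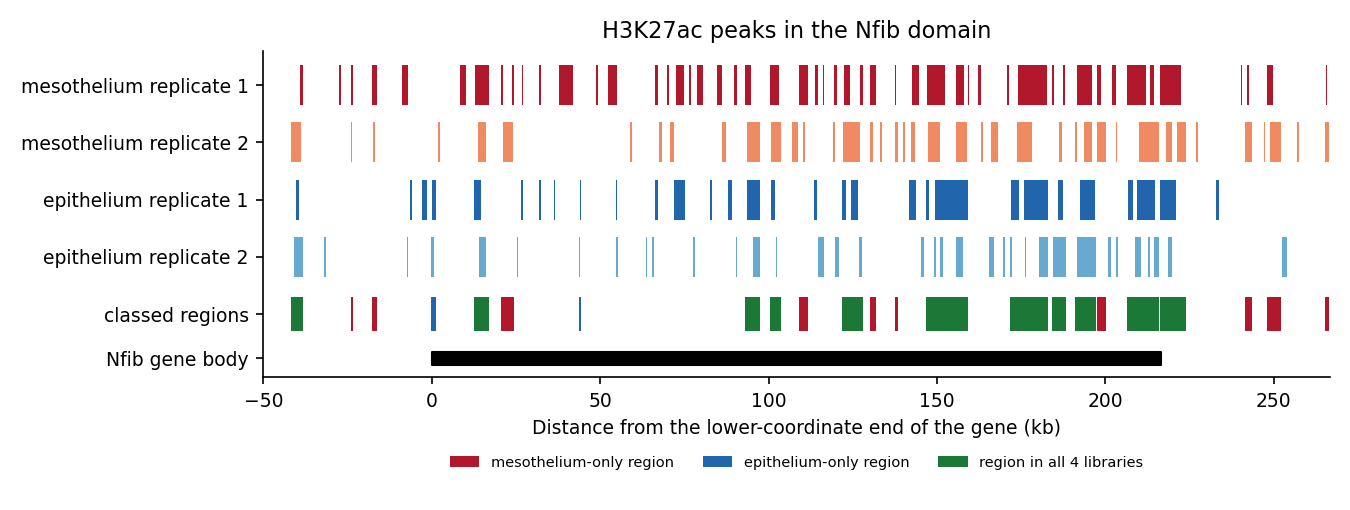
Peaks of the 4 libraries across the Nfib domain by distance from the lower-coordinate end of the gene (kb), with the merged regions of 3 classes and the gene body below. Of the 11 regions in all 4 libraries (green) most lie in the higher part of the gene, and mesothelium-only regions (red) lie along the gene and in both flanks.

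Acetylation of Nfia lay mostly far inside the annotated gene. RefSeq lists 9 Nfia transcripts, and only the start near the lower end was analysed. Whether the peaks further inside lie at starts of other transcripts was not tested. The first 150 kb from its lower end held no peak and 0.402 kb in mesothelium against 0.799 and 0.637 kb in epithelium. The first region shared by all libraries was centred 174 kb from the lower end (chr4:97751224-97752840). The stretch between 200 and 300 kb held 34.9 and 21.6 kb in mesothelium against 11.6 and 10.5 kb in epithelium. Both mesothelium libraries were higher there. Epithelium replicate 2 held more further on, with 3.01 kb from 200 to 250 kb, 7.45 kb from 250 to 300 kb and 6.02 kb from 300 to 350 kb. Within it, a region of 9.62 kb found in 3 libraries (chr4:97823243-97832857) had 8.30 and 3.39 kb under peaks in mesothelium, against none and 1.06 kb in epithelium. An all-library region of 6.33 kb (chr4:97843251-97849584) had 5.22 and 1.20 kb in mesothelium, against 1.31 and 0.893 kb in epithelium, where the nearest values were close. The flanks of Nfia held at most 1.01 kb each in any library.

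**Figure D5:**
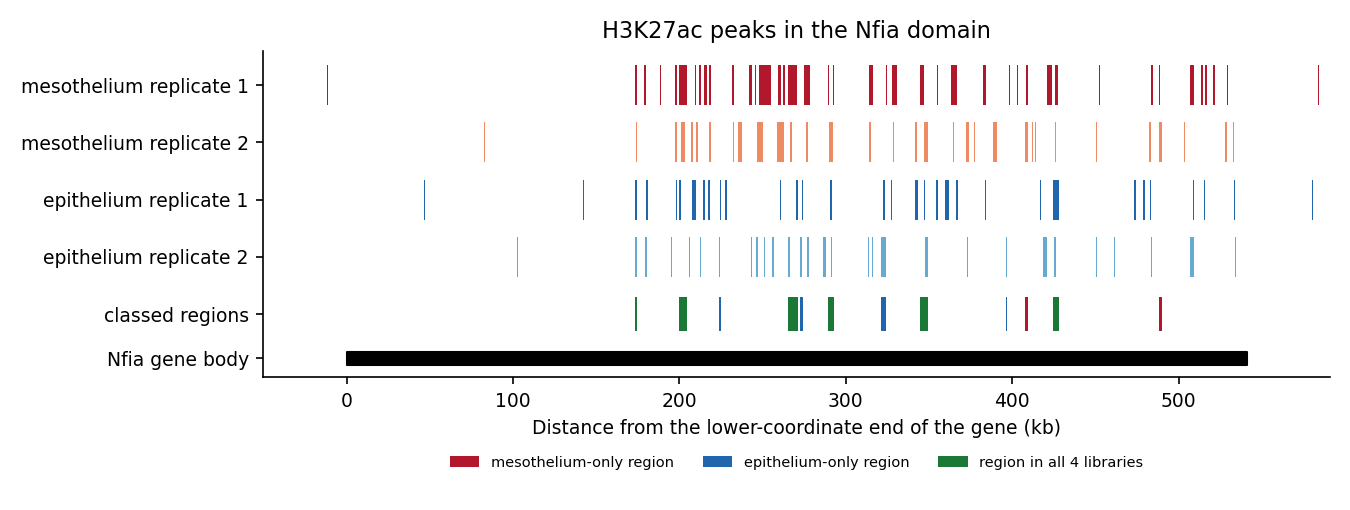
Peaks of the 4 libraries across the Nfia domain by distance from the lower-coordinate end of the gene (kb), with the merged regions of 3 classes and the gene body below. The first 150 kb of the gene are nearly empty in every library, and both mesothelium libraries are most densely covered between 200 and 300 kb.

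Peaks at Nfib and Nfia were wider in the median than peaks at large, though by little at Nfia in epithelium replicate 2. Median fold enrichments at both genes were near those of all peaks. The median width was 1131 and 1198.5 bp at Nfib in mesothelium and 1272 and 847 bp in epithelium, and 1154.5 and 1037 bp against 705 and 611 bp at Nfia. Over all peaks it was 588 and 613 bp in mesothelium against 580 and 571 bp in epithelium. The widest Nfib peak ranked 10th and 66th in its mesothelium list and 26th and 186th in its epithelium list. Fold enrichment over the peak caller's background, as the authors deposited it, had medians of 3.64 and 3.89 at Nfib in mesothelium and 3.59 and 3.47 in epithelium. At Nfia the medians were 3.63 and 3.92 in mesothelium and 3.51 and 3.41 in epithelium. Medians of all peaks were 3.60 and 3.75 in mesothelium and 3.47 and 3.48 in epithelium. Nfib had 1 and 3 peaks with a −log10 q of 4 or more in mesothelium against 1 and 1 in epithelium, and Nfia had 0 and 1 against 0 and 0. At Nfib these are 2.00% and 7.50% of its peaks in mesothelium and 3.33% and 2.86% in epithelium. Of all peaks they are 1.60% and 5.46% in mesothelium and 1.19% and 1.24% in epithelium. With 1 to 3 such Nfib peaks a library, the Nfib shares turn on single peaks. The strongest Nfib peak by q ranked 279 and 1512 in the mesothelium lists and 184 and 200 in the epithelium lists. In number, Nfib had 50 and 40 peaks in mesothelium against 30 and 35 in epithelium.

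Overlap between libraries at Nfib did not follow cell type. The Jaccard index divides the bases that 2 libraries share by the bases that at least 1 of them covers, and it grows with the share of a locus under peaks, so it is read here within a locus. At Nfib it was 0.268 between the mesothelium libraries and 0.232 between those of epithelium. Between cell types it ran from 0.181 to 0.331, and the highest of all pairs joined mesothelium replicate 1 with epithelium replicate 1. At Nfia it was 0.194 within mesothelium, 0.0953 within epithelium and 0.0918 to 0.104 between them. At Nfia the mesothelium pair thus stood highest, and at Nfib a mixed pair did. Over all chromosomes the index was 0.132 within mesothelium, 0.140 within epithelium and 0.0912 to 0.102 between them. Covered length also differs between libraries within a locus, and its part in these orders was not tested.

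The tested starts of Nfia, Nfic and Nfix lay outside the peaks, although long acetylated stretches lay elsewhere in Nfia. The RefSeq promoter table (GRCm38.p6) gave 1 start for Nfia, 1 for Nfic and 4 for Nfix. RefSeq lists 9, 4 and 29 transcripts for these genes, so starts of other transcripts were not analysed here. For Nfib, which RefSeq lists with 10 transcripts, both gene ends were used. The promoter windows, 250 bases before to 50 after a start, are shown for the starts tested in Nfia and Nfic and for the 1 Nfix start with a peak nearby. They read 5′ to 3′ on the strand of the gene, and capitals mark the NFI half-site TTGGC, the AP-1 site TGACTCA and the GC box GGGCGG on either strand.
Nfia (chr4:97581693-97581992, plus strand): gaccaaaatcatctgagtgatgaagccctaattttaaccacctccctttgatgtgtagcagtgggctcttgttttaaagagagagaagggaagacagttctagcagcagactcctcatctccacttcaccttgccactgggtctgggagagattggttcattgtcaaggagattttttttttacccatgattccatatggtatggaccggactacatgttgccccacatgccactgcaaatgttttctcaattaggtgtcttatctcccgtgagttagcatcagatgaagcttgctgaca
Nfic (chr10:81427124-81427423, minus strand): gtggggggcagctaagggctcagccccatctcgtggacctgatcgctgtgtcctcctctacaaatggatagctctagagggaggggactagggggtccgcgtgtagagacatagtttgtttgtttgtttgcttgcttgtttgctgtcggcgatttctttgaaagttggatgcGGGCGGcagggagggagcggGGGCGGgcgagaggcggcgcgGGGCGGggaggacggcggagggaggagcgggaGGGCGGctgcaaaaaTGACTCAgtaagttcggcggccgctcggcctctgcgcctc
Nfix (chr8:84773361-84773660, minus strand): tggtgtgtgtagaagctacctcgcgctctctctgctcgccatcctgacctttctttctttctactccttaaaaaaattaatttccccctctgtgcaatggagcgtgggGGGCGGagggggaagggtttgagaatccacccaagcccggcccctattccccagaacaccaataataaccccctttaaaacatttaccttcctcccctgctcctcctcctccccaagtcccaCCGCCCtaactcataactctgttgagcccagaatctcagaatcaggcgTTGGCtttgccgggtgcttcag

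No base of these windows, or of the other 3 Nfix windows, lay under a peak in any library. Nfia's window held none of the motifs, Nfic's held 4 GC boxes and 1 AP-1 site, and the printed Nfix window held 2 GC boxes and 1 NFI half-site. Of the Nfix windows not printed, that of the start at 84772875 held 2 NFI half-sites and that at 84775828 held 1. The window of the start at 84780082 held none of the motifs. None of the 6 windows held the full palindrome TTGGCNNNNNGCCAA, which 0.0329% of 21262 promoter windows of coding genes hold, against 47.9% with a half-site, 46.2% with a GC box and 4.66% with the AP-1 site. All motifs were searched on both strands, and a palindrome would also hold a half-site on each. The GC share was 44.7% for Nfia, 63.0% for Nfic and 44.3% to 57.3% for the Nfix windows, beside a median of 56.3% over all windows.

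A peak within 1 kb of a start or, for Nfib, of a gene end was present for Nfib in all 4 libraries and for Nfix in mesothelium replicate 2. Nfia and Nfic had none in any library. By the same measure 25.7% and 33.4% of coding genes had such a peak in mesothelium and 26.4% and 26.5% in epithelium. Within 5 kb of the higher end of Nfib, 7.18 and 6.53 kb were covered in mesothelium and 7.74 and 3.27 kb in epithelium. The nearest peak to the Nfia start was 14.9 and 78.8 kb away in mesothelium and 5.85 and 98.4 kb away in epithelium. A list holds no interval that fell under the caller's limit, so a start without a peak is not a start without acetylation.

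The lower neighbours of Nfib and Nfia were both called longer in mesothelium, and the higher neighbours were not called. Mpdz, a PDZ-domain scaffold gene 847 kb below Nfib, had 27.8 and 26.4 kb in mesothelium against 5.76 and 4.45 kb in epithelium (log2 difference 2.37, SE 0.39, limma adjusted p = 0.00117). Gm12695, 791 kb below Nfia, had 6.06 and 12.7 kb in mesothelium against no peak and 0.360 kb in epithelium (log2 difference 3.89, limma adjusted p = 0.00214). At both genes the mesothelium libraries lay far above those of epithelium. On the other side, Zdhhc21, a palmitoyltransferase gene 292 kb above Nfib, had 2.61 and 2.97 kb in mesothelium against 12.9 and 7.15 kb in epithelium, which did not pass (log2 difference -1.56, limma adjusted p = 0.106) but did with flanks not cut at neighbours (-1.72, limma adjusted p = 0.0481). Tm2d1, 236 kb above Nfia, did not pass either (log2 difference -1.03, limma adjusted p = 0.505). The differences between neighbours and members were not tested. Around Nfic and Nfix, Celf5 and Lyl1, the second of which overlaps the end of Nfix, had no peak in any library, and Smim24 and Dand5 had a peak of 0.319 and 0.323 kb in mesothelium replicate 2 alone.

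The tested domains most like each member were named by the Euclidean distance of the centred log2 lengths over the 4 libraries. For Nfib they were Rad51b (distance 0.40), Foxp1 (0.77), a forkhead repressor gene of lung development, and Rere (0.85). Rad51b had 69.5 and 74.5 kb in mesothelium against 66.1 and 49.8 kb in epithelium. For Nfia they were Sptbn1 (0.66), which encodes a spectrin, Ttll5 (0.82) and Rbms3 (0.86). For Nfix they were Ugcg (0.25), Camsap1 (0.29) and Epn2 (0.38), and for Nfic Lnx1 (0.18), Sec24a (0.21) and Zfp74 (0.22). With 4 values a gene, such likeness is a description.

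Partners and reported targets of NFI proteins were read from lists chosen with earlier results of these data known. Of 10 partner and coactivator genes, 9 were tested. Of these, 3 were called longer in epithelium (2.52% of all tested domains were) and none was called longer in mesothelium (1.39%). The median log2 difference was -0.24, beside 0.03 over all tested domains. The 3 were Nkx2-1 (log2 difference -4.51, limma adjusted p = 0.000584), Foxa2 (-4.03, limma adjusted p = 0.000749) and Foxa1 (-2.61, limma adjusted p = 0.0262), which encode lung endoderm factors, and Nkx2-1 and Foxa2 are also among the epithelial markers. Foxa2 had 5.85 and 0.417 kb in mesothelium against 36.3 and 45.5 kb in epithelium. The Foxa1 call was lost in 10 of 17 other settings, among them without mesothelium replicate 2 (log2 difference -1.26) and without either epithelium library (-2.69 and -2.61). The other 6 tested, among them the coactivator genes Crebbp and Ep300, were not called.

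Of 10 lung differentiation genes named in NFI studies, 6 were tested. Of these, 3 were called longer in epithelium and none was called longer in mesothelium, beside 2.52% and 1.39% of all tested domains. The median log2 difference was -2.51. The surfactant protein gene Sftpb had 1.13 and 0.683 kb in mesothelium against 12.9 and 5.14 kb in epithelium (log2 difference -2.59, limma adjusted p = 0.0222). Sftpd, another surfactant protein gene, had no peak in mesothelium against 5.87 and 2.52 kb in epithelium (limma adjusted p = 0.0254). Pdpn, the sort marker of both gates, had 0.364 kb and no peak against 10.4 and 8.97 kb (log2 difference -3.89, limma adjusted p = 0.00163). The Sftpb call was lost in 9 of 17 other settings, among them without epithelium replicate 1 (-2.05), with 5 kb flanks (-1.42), in the gene body alone (-1.30) and with flanks not cut at neighbours (-1.32). The Sftpd call was lost in 10 of 17, among them without either epithelium library (-2.62 and -3.61).

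Of 7 reported NFI targets in mouse brain, 5 were tested and none was called by limma, while 3 had an unadjusted p under 0.05, as 17.7% of all tested domains did. The median log2 difference was 1.02. Ezh2, the histone H3K27 methyltransferase gene, had 10.3 and 6.34 kb in mesothelium against 2.78 and 2.80 kb in epithelium (log2 difference 1.45, SE 0.54, limma adjusted p = 0.153). Bbx had 11.3 and 17.1 kb against 8.01 and 5.94 kb (log2 difference 1.02, limma adjusted p = 0.200), and Insc had 4.19 and 5.48 kb against 1.11 and 3.31 kb (limma adjusted p = 0.348). Hes1, a Notch target gene, had 6.11 and 1.34 kb in mesothelium against 8.98 and 10.9 kb in epithelium (log2 difference -1.52, limma adjusted p = 0.171), and was called without mesothelium replicate 1 (-2.49, limma adjusted p = 0.0035). Sox9 had 0.502 kb and no peak against 0.706 and 3.26 kb (limma adjusted p = 0.365), and the glial genes Gfap and Fabp7 had no peak in any library.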

How the data were processed

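Each of the 4 H3K27ac libraries has a deposited broad peak list on mm10, and the peak names show that lists were made library by library. Among the tools in the submitters' processing notes are cutadapt 4.8, Bowtie2 2.5.3, MACS2 2.2.9.1 and bedtools 2.31.1. The caller's control and cut-off are not given in the labels. In the deposited files the ratio gives how many fold a peak exceeds the caller’s background. Peaks were ranked or filtered within a list by the deposited −log10 q, whose minimum was 1.00 to 1.03, and the deposited −log10 p chose the peaks where lists were cut to equal length. The deposited score, 10 times −log10 q in whole numbers, was not used.

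Only the numbered chromosomes, X and Y entered, so 1 to 8 peaks a library dropped out. Gene positions were those of RefSeq (GRCm38.p6, the assembly of mm10). The covered kb of each domain, plus 0.5 and on the log2 scale, went into limma 3.58.1 under R 4.3.3. Values were centred on the median of the 6918 domains that every library had peaks in, the variance followed the mean length, and p-values were adjusted by Benjamini-Hochberg (threshold 0.05) over the 10485 domains averaging at least 0.5 kb. Peaks sharing 1 bp were merged, and a region belonged to the domain around its midpoint. Coverage was computed in Python 3.11.15 with numpy 2.4.6 and pandas 2.3.3, exact permutation tests in scipy 1.17.1, and plots in matplotlib 3.10.9. Both the coverage and the limma steps were tested on simulated data.

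The members and lists were chosen with earlier results of these data known. Named were the 4 members, the nearest coding gene on each side, the 3 domains most alike each member (leaving out neighbours, overlapping genes and unnamed gene models), and per list up to 4 called genes a direction, or all genes where fewer than 3 were called. Groups came from the titles. The alternatives covered the pseudocount, filter, scaling, domain, peak threshold, number of peaks, overlap and merging rules, start window, intensity trend, replicate block and each library left out. Those for the most alike genes were chosen after seeing the data.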

Additional observations from a re-analysis of the deposited data

How the results depend on the processing

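The log2 difference of Nfia stayed positive in all 17 other settings that gave a value. It lost its call with 0.1 kb added (0.96), lengths divided by the total (1.01), quantile normalization (1.03), no centring (0.88), 5 kb flanks (0.89), flanks not cut at neighbours (0.85), the gene body alone (0.92), a −log10 q floor of 2 (1.92), equal numbers of peaks (1.02) and no intensity trend (0.94), and ran from 0.56 to 1.37 with 1 library left out. Nfib passed with 1 kb added (0.63), with the replicate block (0.64, limma adjusted p = 0.0451) and without mesothelium replicate 2 (0.37 to 0.89 over the libraries left out), and turned to -0.80 with a −log10 q floor of 4 (limma adjusted p = 0.659). Nfic turned to -0.036 with 5 kb flanks and -0.018 in the gene body, and ran from -0.25 to 0.56 with 1 library left out. Nfix ran from -0.83 to 0.60 with 1 library left out, turning positive without mesothelium replicate 2 or epithelium replicate 2. Mpdz turned to -0.13 with a −log10 q floor of 4 and Hes1 to 1.36 with 5 kb flanks. The cause of these changes was not tested. A fit without 1 library assumes that the lone library varies like the others.

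Over all domains 410 were called, against 1 with 0.1 kb added, 206 by total length, 220 after quantile normalization, and 0 at a −log10 q of 2 or more, of 4 or more, or without an intensity trend (limma, with 963, 23 and 1746 at an unadjusted p under 0.05). With 1 library left out, 189 to 642 were called. The NFI domains held 12 mesothelium-only, 6 epithelium-only and 17 all-library regions. At a −log10 q of 2 or more there were 14, 0 and 2, and at 4 or more 0, 0 and 0. Merging peaks within 1 kb gave 2 epithelium-only regions, asking each library to cover at least 25% of a region gave 9 all-library regions, and gene bodies alone gave 7 mesothelium-only regions. With 1 library left out the counts were 18 to 49 mesothelium-only and 8 to 28 epithelium-only, since fewer libraries must then have or lack a peak. Peaks at starts, 5 of the gene and library pairs, became 3 over the start base itself and 1 and 0 at a −log10 q of 2 or more and of 4 or more. Of the 12 most alike genes, between 0 and 12 were found again.

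The replicate numbers were not used to pair the libraries in the main fit. Their deviations correlated at 0.03 over 10485 domains, and the labels do not say whether a number marks a shared pool. With 2 libraries per cell type this correlation cannot decide whether the libraries are paired. The fit with the replicate block called 546 domains. Nfic could not be fitted with a −log10 q floor of 2, nor Nfia, Nfic and Nfix with a floor of 4. Depth is unknown, and short domains rest on 1 to 6 peaks a library.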

Other observations

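Nfia was also among the long domains called longer in mesothelium. Of 135 tested domains that averaged at least 20 kb, a limit chosen after seeing the data, 36 were called by limma (26.7%, against 3.91% of all tested domains), 7 of them longer in mesothelium and 29 longer in epithelium. The median log2 difference of the 135 was -0.32, against 0.03 over all tested domains, and 50 of the 135, Nfib among them, had a positive one. The 7 were Meis1, Ptprd, Phactr2, Map4k3, Celf2, Tns3 and Nfia, named after their values were seen, and Nfia had the smallest log2 difference of them (0.94, against 4.35 for Meis1). Tns3, which encodes a tensin, had 50.3 and 51.5 kb in mesothelium against 19.2 and 24.1 kb in epithelium.

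Noncoding genes lay within the acetylated stretches of Nfib and Nfia, and their peaks cannot be assigned to 1 of the overlapping genes. 2310067E19Rik, annotated within Nfib, held 19.9 and 14.0 kb under peaks in mesothelium and 16.8 and 16.3 kb in epithelium. The lncRNA gene Gm11266, beyond the higher end of Nfib, held 6.95 and 10.8 kb in mesothelium against 3.75 and 2.53 kb in epithelium, without overlap between the cell types. The lncRNA gene Gm19417, within Nfia, held 10.3 and 3.13 kb in mesothelium against 2.66 and 4.95 kb in epithelium, which overlap. These differences were not tested.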
